A study of Saccharomyces cerevisiae with 6 samples.

Results

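Decay rates of messenger RNAs were followed gene by gene in wild-type budding yeast, Saccharomyces cerevisiae. The cells were of BY4741, a haploid laboratory strain, grown as 3 biological replicate cultures with genotype wild type. The other 3 cultures of the study carried a deletion of UPF3 in the same strain background and are used here only for comparison. UPF3 encodes a factor of nonsense-mediated decay, the pathway that degrades mRNAs with a premature stop codon, and the study asked which transcripts change half-life without it. Of 5560 annotated genes in the tables, 5156 had a mean of 100 or more reads per 4-thiouracil library of the wild-type cultures, and 5123 of these gave a decay rate in all 3 cultures. These 5123 genes are described below.

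Most yeast mRNAs are degraded in the cytoplasm in a fixed order. The poly(A) tail is shortened, chiefly by the Ccr4-Not complex, the Dcp1-Dcp2 enzyme removes the cap, and the exonuclease Xrn1 digests the body from the 5′ end, while the exosome degrades from the 3′ end. In SLAM-seq, cells take up the uracil analogue 4-thiouracil (4TU), new RNA incorporates it, and a chase with ordinary uracil lets the labelled RNA decay. Alkylation of the thiol group makes reverse transcriptase read a labelled position as C in place of T, so the share of T positions read as C measures the labelled share of a gene's mRNA at each time.

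Each culture gave 7 libraries, namely 6 chase libraries of 4TU-labelled cells and 1 library of cells given the solvent DMSO. The chase times averaged 0, 1.02, 3.92, 7.98, 17.97 and 57.87 over the 3 cultures; the files give no unit, and the times are read here as minutes. The libraries were made from 3′ ends (QuantSeq), so a gene's reads are not scaled by transcript length, and totals ran from 11045419 to 16983335 reads over the 21 wild-type libraries. At the first chase point 2.56 to 2.77% of all covered T positions were converted, against 0.0249 to 0.0357% in the DMSO libraries, and at the last point 0.169 to 0.189%. The mating type of the strain was checked on its markers: the genes of a-mating cells MFA1, MFA2, STE2, BAR1 and AGA2 summed to 4650, 4136 and 4052 CPM (reads per 1000000 reads) in cultures 1, 2 and 3, against 19.4, 24.6 and 22.3 CPM for 4 genes of alpha cells. Of the genes disrupted in BY4741, MET17 averaged 0.0033 CPM, LEU2 0.345 CPM and URA3 10.9 CPM, while HIS3, which is only partly removed in this strain, averaged 130 CPM. UPF3 was present at 26.9 CPM. The numbers that open the names of all 7 libraries of wild-type culture 1 also occur in culture 3 of the deletion strain. What these numbers stand for was not checked, and whether reads passed between those libraries was not tested.

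The DMSO conversion rate of a gene was subtracted from its rate in each 4TU library of that culture, and a read-weighted line was fitted to the log2 of the remainder over the 5 points up to time 19. The half-life is the time in which the labelled share falls to 50%, and it is the half-life of a share, since RNA made during the chase also dilutes it. The median gene had a half-life of 8.92, 8.40 and 8.57 min in cultures 1, 2 and 3, which is 8.63 ± 0.265 min (SD, n = 3). Averaged over cultures on a log scale, 25% of genes lay below 7.46 min and 25% above 10.4 min, with the 5th percentile at 6.23 min and the 95th at 21.2 min. The distribution thus had a narrow short side and a long tail of long-lived transcripts, which reached 127 min against a shortest value of 3.94 min. In the median gene the label left, relative to the first point, was 95.7 ± 1.53%, 75.7 ± 2.21%, 51.8 ± 3.26%, 23.9 ± 1.15% and 2.80 ± 0.305% at the second to sixth points (SD, n = 3).

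Each gene was tested against the median gene of its culture with limma on the log2 decay rate, with p-values adjusted over all 5123 genes by the Benjamini-Hochberg method. At an adjusted p under 0.05, 897 genes (17.5%) decayed more slowly and 62 genes (1.21%) decayed faster than the median gene. At an unadjusted p under 0.05 the counts were 1159 slower and 437 faster. The slower genes lived a median of 1.82 times as long as the median gene, 634 of them at least 1.5 times, 368 at least 2 times and 16 at least 5 times. The faster genes lay between 0.484 and 0.881 of the median gene's half-life. Depth differed between the classes, with a median of 3832 reads per library in slower genes, 1591 in faster genes and 606 in genes called neither way. The faster calls depended on single cultures: 399, 11 and 5 genes were called faster without culture 1, 2 and 3, and the slower calls numbered 1222, 759 and 630.

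**Figure D1:**
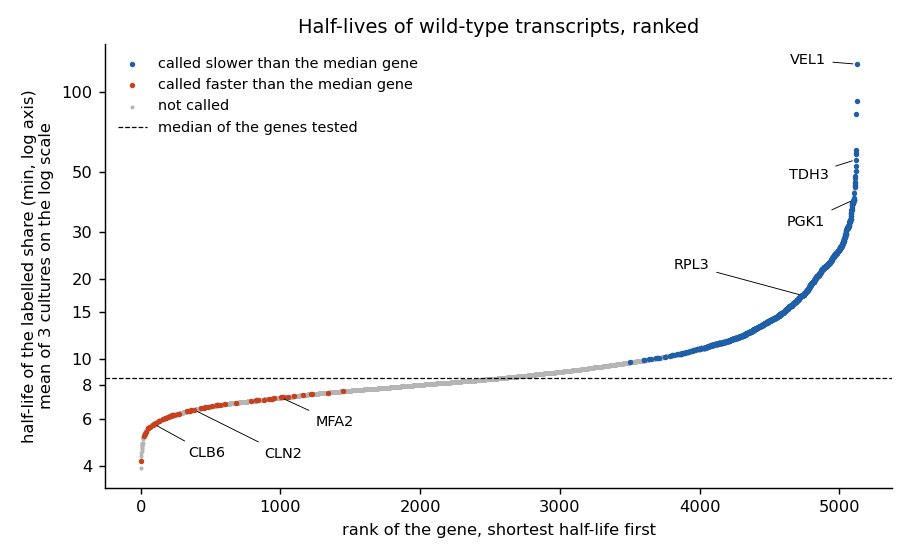
Half-life of the labelled share (minutes, log axis) of the 5123 wild-type genes in rank order, as the log mean of 3 cultures, with genes called slower or faster than the median gene by limma (Benjamini-Hochberg adjusted p under 0.05) in colour. The curve is flat through most of the ranks and steepens at the long-lived end, where the 897 slower genes lie.

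The order of genes repeated between cultures in proportion to depth. Over all 5123 genes the Spearman correlation of half-lives was 0.50 between cultures 1 and 2, 0.54 between 1 and 3 and 0.66 between 2 and 3. In the 1086 genes with 2000 or more reads per library it was 0.92, 0.93 and 0.97 for the same pairs. At the read minimum single values varied widely: BSC4, at 100.2 reads just inside it, had 109, 7.66 and 7.43 min, and YPR196W, at 100 reads, 4.85, 5.58 and 9.89 min. Just outside were YHL042W, at 99.8 reads, with 12.8, 16.3 and 8.75 min, and HFM1, at 99.1 reads, with 6.03, 9.81 and 21.9 min. The 404 genes below the minimum had a median of 38.6 reads. Of the 33 genes left untested, 9 had too few points above background, and 28 had a slope that was not positive in at least 1 culture, 27 of them in culture 1 alone. Most of those were shallow, at a median of 168 reads, but ZPS1, at 21406 reads on chromosome XV (34658 to 35407), was not. ZPS1, a cell-surface protein gene induced by low zinc, kept 99.8, 91.3 and 102% of its label at the fifth point and 3.19, 9.74 and 8.12% at the last.

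The 12 longest half-lives among called genes included 5 genes of glycolysis and fermentation, ENO1, TDH1, TDH3, ADH4 and CDC19, beside 7 others with VEL1 at their head. ENO1 (YGR254W, chromosome VII, 1000927 to 1002240) encodes enolase, which makes phosphoenolpyruvate. Its half-life was 96.3, 94.6 and 85.9 min in cultures 1, 2 and 3, and 87.7 ± 0.894% of its label was left at the fifth point (SD, n = 3). The 3 cultures lay close together and far above the median gene, and the half-life was 10.7 times the median gene's (log2 difference 3.42 ± 0.05 SE, limma adjusted p = 8.13e-07). TDH3 (chromosome VII, 882812 to 883810), the main glyceraldehyde-3-phosphate dehydrogenase gene and the deepest of these genes at 171265 reads, had 55.6, 57.4 and 54.3 min. The 3 cultures of TDH3 lay within a few minutes of each other, and its log2 difference was 2.69 ± 0.03 SE (limma adjusted p = 8.13e-07). TDH1, the paralogue used mainly in stationary cells, had 62.3, 91.6 and 100.1 min. CDC19, the pyruvate kinase gene, had 42.6, 51.6 and 44.5 min.

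The other long-lived transcripts came from varied pathways. IPP1, the cytosolic pyrophosphatase gene, had 48.8, 47.1 and 49.5 min (log2 difference 2.49 ± 0.04 SE, limma adjusted p = 8.13e-07). DUG1, a gene of glutathione degradation, had 67.8, 37.4 and 42.3 min. ANB1 (chromosome X, 524908 to 525381), the form of translation factor eIF5A made in low oxygen, had 47.8, 63.1 and 68.0 min at 246 reads. Its paralogue HYP2, the aerobic form, had 10.98, 10.7 and 11.1 min. ANB1 was named for its long half-life, so the gap to its paralogue follows in part from that choice. PBI2, an inhibitor of vacuolar protease B, had 43.1, 98.0 and 52.2 min, and GPG1, a G-protein gamma-like subunit gene, had 30.4, 139 and 47.6 min.

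Several of these ranks rested on 1 culture. VEL1 (YGL258W, chromosome VII, 11110 to 11730) had the longest half-life among tested genes, with 405, 84.7 and 59.5 min at 379 reads (the untested ZPS1 kept more label at the fifth point), and a fold over the median gene of 14.7, or 8.36 without culture 1. Its limma adjusted p was 0.00252 with all cultures and 0.0656 without culture 2. ADH4 had 109, 37.2 and 36.1 min, with a limma adjusted p of 0.00146, or 0.114 without culture 2. YCL021W-A had 168, 31.1 and 24.5 min, with 51.2% of its reads mapping to more than 1 place, a fold of 5.85, or 3.25 without culture 1, and a limma adjusted p of 0.017, or 0.25 without culture 2. The call of PBI2 was lost without culture 1 (limma adjusted p = 0.114), and the fold of GPG1 was 6.79, or 4.35 without culture 2.

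Total reads of these genes moved during the chase. In 11 of the 12 genes the mean CPM at the fifth point were below those at the first. The fall was 1.23 ± 0.25 on the log2 scale in VEL1, 1.09 ± 0.07 in ADH4 and 0.94 ± 0.08 in ENO1 (SD, n = 3). Of the 12 shortest-lived called genes 8 also fell, and how many of all genes did so was not counted. Over 5123 genes the Spearman correlation of half-life with this change was -0.047. The log2 change from DMSO to the first point was -0.58 ± 0.45 in VEL1, -1.23 ± 0.13 in ADH4 and -0.32 ± 0.46 in ENO1 (SD, n = 3). In these bulk cultures, fewer cells that express a gene and less of its RNA per cell cannot be told apart. The conversion rate multiplied by the gene's CPM follows the labelled amount relative to all reads of the library, called the labelled amount here. A change in total RNA during the chase is not taken out of it. By this measure ENO1 had a half-life of 14.0, 16.1 and 13.6 min and TDH3 27.5, 22.8 and 22.6 min. The median gene had 7.96, 8.26 and 8.42 min. ENO1 then lived 1.77 times as long as the median gene, and VEL1 1.70 times, no longer past the threshold (limma adjusted p = 0.0554). How far a change in new synthesis sets the half-life of the share was not tested.

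The 12 shortest half-lives among called genes held no single pathway, though CDC16, ACM1 and CLB6 all act in the cell cycle. PHM6 (YDR281C, chromosome IV, 1022007 to 1022321), a gene induced by phosphate starvation, had 2.99, 5.09 and 4.78 min and 5.49 ± 3.33% of its label left at the fifth point (SD, n = 3), at 159 reads. CLB6 (YGR109C, chromosome VII, 705359 to 706501), an S-phase cyclin, had 5.04, 6.40 and 5.84 min and 11.5 ± 3.68% left. All 3 cultures of both genes lay below the median gene of the same culture. CDC16, a subunit of the anaphase-promoting complex, had 4.64, 5.25 and 6.34 min, and ACM1, an inhibitor of that complex, had 5.96, 5.48 and 5.65 min.

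The other 8 were MSS2, DBP7, VFA1, SET3, HLR1, DER1, MUP3 and PRP21. DBP7, an RNA helicase of ribosome assembly, had 4.37, 4.73 and 7.10 min. PRP21, a splicing factor of the SF3a complex, had 5.73, 5.60 and 6.34 min, with the lowest adjusted p of the 12 (log2 difference -0.55 ± 0.11 SE, limma adjusted p = 0.0161). DER1, a gene of protein export from the endoplasmic reticulum for degradation, had 6.05, 5.31 and 5.76 min, and MUP3, a low-affinity methionine permease, had 5.72, 5.11 and 6.69 min. The 12 genes had 159 to 788 reads per library, and limma adjusted p-values from 0.0161 to 0.0491. None kept its call without culture 2 or without culture 3 (0 of 12); without culture 1, 11 kept it and PHM6 had no value. VFA1 and MUP3 lay above the median gene with a line over all 6 points (log2 difference 0.39 and 0.28), and DER1 did so with a line over times 0 to 9 (0.50). MUP3 reads at the fifth point were lower than at the first by 2.28 ± 0.38 on the log2 scale (SD, n = 3).

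Transcripts often used as examples of mRNA decay fell on both sides. MFA2, which encodes a-factor and is a standard unstable reporter, had 7.14, 7.19 and 7.27 min at 33288 reads and was called faster (log2 difference -0.26 ± 0.04 SE, limma adjusted p = 0.00373). By labelled amount it had 9.01, 8.13 and 8.82 min and lay above the median gene (log2 difference 0.0742). Its partner gene MFA1 had 16.7, 15.6 and 14.7 min and was called slower (limma adjusted p = 3.14e-05), so the a-factor genes stood on opposite sides of the median gene. PGK1, the phosphoglycerate kinase gene and the standard stable reporter, had 38.3, 39.4 and 40.8 min, or 4.57 times the median gene (log2 difference 2.19 ± 0.04 SE, limma adjusted p = 8.6e-07). ACT1, the actin gene, had 29.0, 28.1 and 29.4 min. RPL3, a large-subunit ribosomal protein gene, had 16.3, 17.7 and 18.004 min.

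CLN2, a G1 cyclin, had 6.44, 6.19 and 6.81 min and was called faster (limma adjusted p = 0.0244), a call lost without culture 2 or 3. CLN3, the G1 cyclin that acts upstream of it, had 7.79, 7.85 and 7.64 min and was not called (limma adjusted p = 0.296). STE2, the alpha-factor receptor, had 6.79, 7.42 and 7.68 min (limma adjusted p = 0.053, or 0.0251 without culture 1). GCN4, a transcription factor gene regulated in translation, had 8.89, 9.10 and 9.73 min (limma adjusted p = 0.241, or 0.0119 for a longer half-life without culture 1). ADH1, the main alcohol dehydrogenase gene, had 13.2, 13.4 and 14.3 min and was called slower (limma adjusted p = 0.000103). The remaining HIS3 transcript had 21.8, 17.98 and 18.3 min and was called slower (limma adjusted p = 0.000153).

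**Figure D2:**
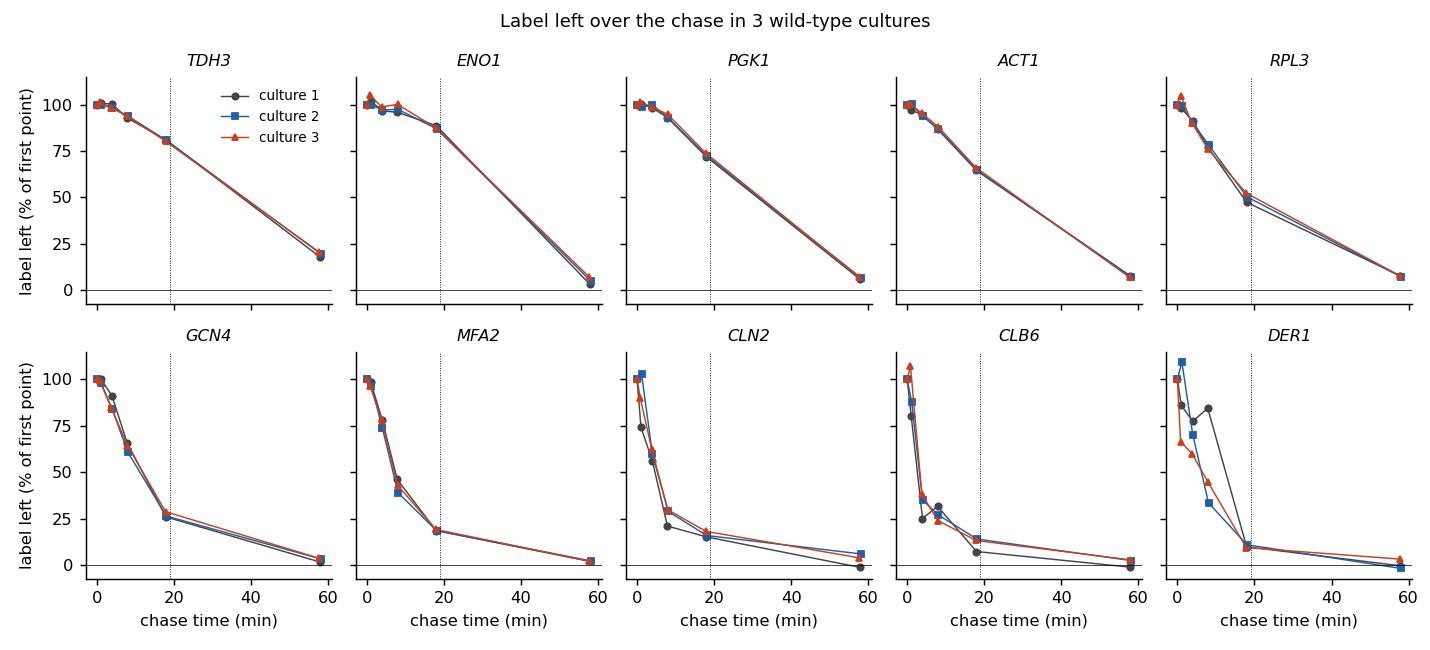
Label left (percent of the first chase point, linear axis) against chase time for 5 long-lived genes (TDH3, ENO1, PGK1, ACT1, RPL3) and 5 others (GCN4, MFA2, CLN2, CLB6, DER1) in 3 wild-type cultures, with the end of the fitted range dotted at 19. At the fifth point ENO1 kept 87.7 ± 0.894% and CLB6 11.5 ± 3.68%, and at the last point TDH3 kept 19.5 ± 1.3% and ENO1 5.18 ± 1.98% (SD, n = 3).

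Genes were next described in 33 lists of shared function, which hold 1667 distinct genes with values. Lists held 482 of the 897 slower genes and 31 of the 62 faster genes. Slower calls rose with depth: 422 of 512 genes were slower in the top 10% by reads (4266 or more), and 8 of 513 in the bottom 10%. The list counts below stand beside 17.5% slower and 1.21% faster genes in all, and were not compared with those of equally deep genes. The median of 17 lists lay above the all-gene median in 3 of 3 cultures, and that of 15 lists below it in 3 of 3. Genes for ribosomal proteins, glycolysis, the vacuole, chaperones and tRNA synthetases headed the order, and genes of the cell cycle, mitochondrial ribosomes, transcription regulators, mating, nutrient transport and splicing stood at its short end. The counts rest on the fitted range: with a line over all 6 points the slower genes numbered 103 for ribosomal proteins, 12 for glycolysis, 9 for translation factors, 5 for the vacuole, 4 each for chaperones and amino acid synthesis, 3 for stress and 1 for tRNA synthetases, and 0 cell cycle genes were faster. Calls fell over all genes too, to 183 slower and 14 faster with that line, from 897 and 62.

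**Figure D3:**
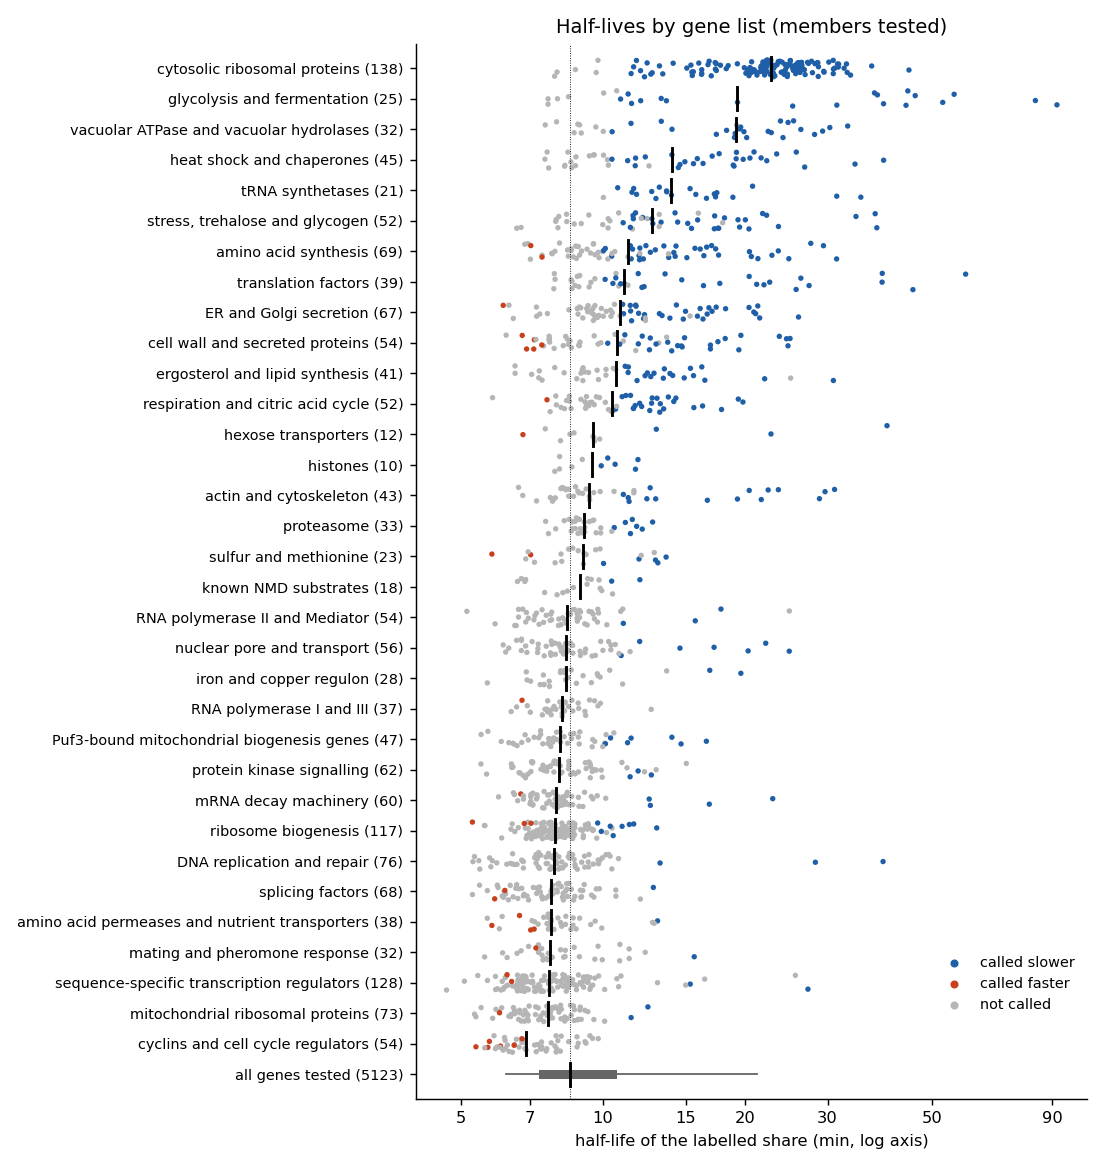
Half-lives (minutes, log axis) of the tested members of 33 gene lists and of all 5123 genes, ordered by median. Points are single genes, coloured by call, and black ticks are medians. The row of all genes has no points: its thick bar spans the 25th to 75th percentile and its thin line the 5th to 95th. Cytosolic ribosomal protein genes have the highest median, at 22.8 min, and cyclins and cell cycle regulators the lowest, at 6.85 min, against 8.49 min for all genes.

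All 138 cytosolic ribosomal protein genes were tested, and 133 were slower and 0 faster, beside 17.5% and 1.21% of all genes. Their median was 23.6, 21.6 and 22.9 min in cultures 1, 2 and 3. The longest were 2 genes of very small basic proteins of the large subunit, RPL41B with 49.0, 42.3 and 43.1 min and RPL39 with 44.1, 33.4 and 35.0 min. Most yeast ribosomal proteins are encoded by pairs of paralogues, and genes that were not called are given here beside a slower partner. RPL22B had 7.73, 8.41 and 7.55 min, and its partner RPL22A 31.1, 24.9 and 27.9 min. RPS9A had 7.90, 7.97 and 8.09 min, and RPS9B 28.9, 24.8 and 24.7 min. The pairs were picked for a slower gene beside an uncalled partner, so the gaps within them follow in part from that choice. RPL15B, with 7.13, 8.95 and 10.4 min, likewise stood below RPL15A, with 21.0, 20.5 and 20.5 min, and RPL7B, with 11.6, 7.91 and 10.1 min, below RPL7A, with 28.8, 23.9 and 29.2 min. Reads of near-identical paralogues may be split in the counting, so the size of such gaps is uncertain.

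Of 25 tested genes of glycolysis and fermentation, 19 were slower and 0 faster, with a median of 19.3 min. In pathway order, the steps of glucose phosphorylation and of phosphofructokinase had shorter half-lives than most of the others. HXK1, HXK2 and GLK1 phosphorylate glucose: HXK1 had 7.80, 8.51 and 7.71 min and was not called, HXK2 12.1, 10.9 and 11.003 min and GLK1 10.1, 11.6 and 11.1 min. PGI1, which converts the product to fructose 6-phosphate, had 28.3, 23.4 and 24.4 min. Of the phosphofructokinase subunits of the committed step, PFK1 had 12.8, 13.1 and 14.0 min and was slower, and PFK2, not called, had 9.47, 10.6 and 10.1 min (limma adjusted p = 0.0984). From aldolase on the values were higher in most genes. FBA1, the aldolase, had 35.5, 38.4 and 39.5 min and TPI1, the triose phosphate isomerase, 35.2, 29.5 and 29.7 min. TDH2, with 20.2, 18.3 and 19.4 min, lay well below its paralogue TDH3. GPM1, the phosphoglycerate mutase, had 41.2, 44.1 and 47.0 min, and ENO2, the enolase of growth on glucose, 44.8, 45.2 and 43.4 min. PDC1, which turns pyruvate to acetaldehyde, had 36.5, 38.7 and 39.7 min, while its reserve form PDC5 had 6.71, 8.28 and 8.03 min and was not called. The uncalled genes also held PYK2, ADH5 and ALD6. The TDH and ENO genes have close paralogues, so reads may be split between them.

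Genes of the translation apparatus outside the ribosome followed. Of 21 tRNA synthetase genes 20 were slower, with a list median of 14.0 min, led by GUS1, the glutamyl-tRNA synthetase, with 29.7, 36.6 and 40.5 min. GLN4 alone was not called, with 10.4, 9.56 and 10.1 min (limma adjusted p = 0.0838). Of 39 translation factor genes 23 were slower and 0 faster, with a median of 11.1 min and of 5013 reads per library, a depth at which most genes were slower. EFT1, one of the paralogous genes for elongation factor 2, had 61.0, 35.1 and 44.1 min, and TEF2, which encodes elongation factor 1A, 37.7, 39.6 and 40.3 min.

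Vacuolar genes had a median of 19.2 min, with 23 of 32 slower and 0 faster. Of 15 subunit genes of the vacuolar proton ATPase, which acidifies the vacuole, 14 were slower. VMA2 and VMA4, subunits of its catalytic sector, had 31.6, 37.7 and 30.4 min and 30.8, 32.3 and 28.1 min. The membrane subunit that differs between organelles is encoded by VPH1 in the vacuole, with 11.8, 11.1 and 11.5 min, and by STV1 in the Golgi and endosome, with 8.85, 7.63 and 9.69 min and no call. The vacuolar hydrolases PRB1, with 5.96, 8.25 and 8.69 min, and PHO8, with 8.06, 7.45 and 8.41 min, were not called.

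Heat shock and chaperone genes had a median of 14.0 min, with 28 of 45 slower and 0 faster. HSP26, a small heat shock protein gene, had 34.0, 53.0 and 34.1 min, and SSA1, a cytosolic Hsp70 gene, 24.2, 21.7 and 21.0 min. HSP104, the disaggregase gene, had 17.1, 14.4 and 15.3 min, and MDJ1, a mitochondrial J-protein gene, 7.49, 7.27 and 7.82 min with no call. Stress, trehalose and glycogen genes had a median of 12.7 min, with 29 of 52 slower and 0 faster. HYR1, a peroxidase gene, had 42.6, 31.8 and 41.0 min, and TRX1, a thioredoxin gene, 32.3, 34.3 and 49.1 min. TPS1, the first enzyme of trehalose synthesis, had 8.81, 8.21 and 9.04 min and was not called. These lists depended on how the label was expressed: by labelled amount 17 heat shock genes were slower and 10 faster, and 19 stress genes were slower and 8 faster. Over all genes the labelled amount gave 825 slower and 291 faster, against 897 and 62 by share.

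Lists of metabolism and secretion were mixed. Of 69 amino acid synthesis genes 35 were slower and 2 faster, with a median of 11.3 min. HOM6 and ILV6, of the threonine and branched-chain pathways, had 26.9, 29.7 and 31.8 min and 42.9, 26.2 and 27.5 min. The faster genes were GLN1, the glutamine synthetase, with 6.77, 6.97 and 7.33 min (limma adjusted p = 0.0116), and ILV5, with 7.66, 7.13 and 7.47 min (limma adjusted p = 0.0212). Without culture 3 the slower count was 23. Ergosterol and lipid synthesis (median 10.6 min) had 19 of 41 slower and 0 faster. Respiration and the citric acid cycle (10.4 min) had 25 of 52 slower, such as the fumarase gene FUM1 with 21.6, 17.5 and 20.6 min, and 1 faster, CIT2, with 7.55, 7.53 and 7.72 min.

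Genes of ER and Golgi secretion (10.9 min) had 30 of 67 slower and 1 faster, SEC12, with 5.85, 5.95 and 6.65 min. Cell wall and secreted protein genes (10.7 min) were divided, with 24 of 54 slower and 5 faster. SCW4 and CWP2, of the wall of growing cells, had 28.3, 22.6 and 24.3 min and 25.02, 24.1 and 25.02 min. The faster genes were UTR2, DSE1, EGT2, SCW11 and HSP150; DSE1, EGT2 and SCW11 act where daughter cells separate. DSE1 had 7.37, 6.71 and 6.58 min and SCW11 7.66, 6.94 and 6.86 min, and both were below the median gene in all cultures.

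Against 17.5% slower and 1.21% faster genes in all, hexose transporters (9.54 min) had 3 of 12 (25%) slower and 1 faster, with a median below that of all genes by labelled amount (log2 difference -0.36). HXT1, the low-affinity transporter of high glucose, had 6.001, 6.85 and 7.51 min and was faster (limma adjusted p = 0.0439). HXT4 had 37.3, 29.2 and 59.4 min and HXT6 15.5, 17.97 and 42.2 min; HXT6 is nearly identical to HXT7, so its counts are uncertain. Of 10 histone genes (9.47 min) 5 were slower, among them HTA2 with 12.2, 11.4 and 12.01 min, while its partner HTA1 had 7.75, 7.91 and 8.61 min and no call. Actin and cytoskeleton genes (9.35 min) had 15 of 43 slower, proteasome genes (9.12 min) 7 of 33 (21.2%), and genes of sulfur and methionine metabolism (9.09 min) 5 of 23 (21.7%) with 2 faster, so the slower shares of hexose transporters, proteasome and sulfur genes were near that of all genes; the sulfur list's median lay below that of all genes by the exponential fit (log2 difference -0.24). Of 18 known substrates of nonsense-mediated decay (8.95 min), 2 were slower, GDH1 and HIS4, and 0 faster.

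The next lists, from transcription and nuclear transport to signalling and mRNA decay, had medians below the 8.49 min of all genes. RNA polymerase II and Mediator (8.39 min) had 3 of 54 slower, the nuclear pore and transport list (8.34 min) 7 of 56, led by the import factor NTF2 with 24.8, 24.7 and 25.2 min, and iron regulation (8.33 min) 2 of 28. RNA polymerases I and III (8.19 min) had 0 of 37 slower and 1 faster, and targets of the decay-promoting protein Puf3 (8.11 min) 7 of 47 slower. Kinases (8.08 min) had 3 of 62 slower, the mRNA decay machinery (7.95 min) 4 of 60 slower and 1 faster, and ribosome biogenesis (7.92 min) 8 of 117 slower and 3 faster. DNA replication and repair (7.85 min) had 3 of 76 slower, yet RNR2 and RNR4, the small subunits of ribonucleotide reductase, had 30.9, 28.8 and 25.3 min and 44.1, 39.0 and 35.4 min. In each of these lists the share of slower genes was below the 17.5% of all genes. Their median reads per library ran from 453 (DNA replication and repair) to 1639 (ribosome biogenesis). Among all genes with 350 to 461 reads 7 of 512 were slower, and among those with 1370 to 2124 reads 114 of 512. Whether the shares of these lists differ from those of equally deep genes was not tested.

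At the short end, splicing factors (7.76 min) had 1 of 68 slower and 2 faster, and 18 of them lay in the fastest 10% of all genes. Their median was 513 reads per library, and among all genes with 461 to 587 reads 10 of 513 were slower. Mating and pheromone response genes (7.73 min) had 1 of 32 slower, MFA1, and 1 faster, MFA2. Amino acid permeases and other transporters (7.74 min) had 1 of 38 slower and 4 faster. PHO84, the high-affinity phosphate transporter, had 7.10, 6.28 and 6.58 min (limma adjusted p = 0.00206), FCY2, a purine and cytosine permease, 6.65, 7.22 and 7.58 min, and MUP1, the high-affinity methionine permease, 6.99, 7.43 and 6.65 min. ZRT1, a zinc transporter, was the slower one, with 10.6, 14.0 and 14.9 min.

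Sequence-specific transcription regulators (7.67 min) had 2 of 128 slower and 2 faster, with 29 in the fastest 10%. The faster ones were TYE7, a regulator of glycolytic genes, with 6.37, 6.16 and 6.66 min, and ROX1, the repressor of genes of low oxygen, with 5.04, 6.85 and 7.07 min. The slower ones were HAC1, the factor of the unfolded protein response, with 32.2, 24.5 and 25.7 min, and HAP1, a heme-responsive activator, with 13.1, 16.5 and 16.7 min. Mitochondrial ribosomal protein genes (7.62 min) had 2 of 73 slower and 1 faster, MRPL23, with 5.38, 6.10 and 6.66 min, and 17 in the fastest 10%. Of all genes 17.5% were slower and 1.21% faster. Median reads per library were 508 for the regulators, 862 for the mitochondrial list and 30794 for cytosolic ribosomal protein genes. Among all genes, 10 of 513 were slower at 461 to 587 reads, 36 of 512 at 746 to 982 and 422 of 512 at 4266 or more. Whether the lists differ from equally deep genes was not tested.

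Cyclins and cell cycle regulators had the lowest median, 6.71, 7.18 and 7.06 min in cultures 1, 2 and 3, with 0 of 54 slower, 6 faster, and 20 in the fastest 10%. The faster ones were CDC16, ACM1, CLB6, CLN2, DBF2, a kinase of mitotic exit, with 5.44, 6.60 and 6.18 min, and PCL1, a G1 cyclin of the Pho85 kinase, with 6.93, 6.45 and 6.83 min. The count of faster members was 20 without culture 1 and 0 without culture 2 or without culture 3, while that of all genes was 399, 11 and 5. With all cultures, 17.5% of all genes were slower and 1.21% faster. The list's median was 592 reads per library, and among all genes with 587 to 745 reads 17 of 512 were slower and 7 faster.

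The labelled share did not fall at 1 rate through the chase. RNA made during the chase also dilutes this share, and late and early rates of the labelled amount were not compared. The late rate, between the fifth and sixth points, was set against the early rate, over the first 4 points, with no point shared. This took in 3320 genes, and 1803 genes could not be tested. In every culture the tested genes had label above background at the fifth and sixth points. They also had at least 3 of the first 4 points above background and a positive rate both early and late. The condition on the last point removes genes whose label had reached background, which fast late decay brings about, so it favours low late rates. Requiring positive rates removes genes whose label was flat or rising, early or late. The lower count below is therefore not read further. The late rate was higher in 557 genes (16.8%) and lower in 822 genes (24.8%) by limma at an adjusted p under 0.05. Without culture 1, 2 and 3 the higher counts were 599, 405 and 416, and the lower counts 1039, 255 and 325. ENO1 had a late half-life of 9.73 min, and its rate was 3.99 higher late than early on the log2 scale (limma adjusted p = 2.05e-05). PGK1 had 11.5 min late (2.85 higher, limma adjusted p = 2.05e-05), and TDH3 19.5 min (1.998 higher, limma adjusted p = 3.65e-05). MFA2 went the other way, with 12.6 min late and a log2 difference in rate of -0.99 (limma adjusted p = 0.00108).

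The long-lived end lost label faster late in the chase than early. In the slowest 10% of genes the half-life was 11.5 ± 0.40 min late and 32.2 ± 3.16 min early, and 364 of 438 testable genes, of 512, had a higher late rate and 2 a lower one. In the fastest 10% only 156 of 513 genes were testable, all of which still held label at the end. They had 16.8 ± 3.501 min late and 5.43 ± 0.265 min early. These values are partly fixed by that selection and show no slowing of the group. At the last point the slowest 10% kept 4.85 ± 0.248% of its label, against 15.1 ± 2.89% predicted by the fitted line, and the fastest 10% kept 1.81 ± 1.07%, against 0.218% predicted (SD, n = 3). The groups were ranked by the line to the fifth point, which uses the early points and the start of the late interval, and that part of the pattern was not tested apart. The half-lives above thus describe the first 19 min: with a line over all 6 points, the half-life of ENO1 was 1.30 times the median gene's, that of TDH3 2.11 times and that of PGK1 1.28 times.

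**Figure D4:**
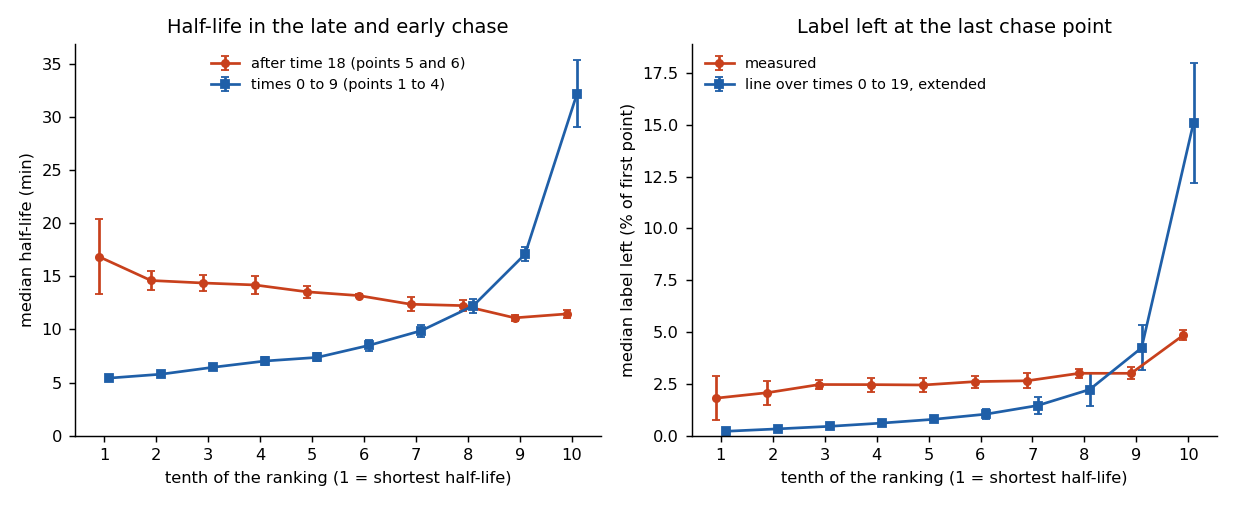
Genes in 10 equal groups by half-life, from fastest to slowest, with the late and early half-life (minutes, left) and the label at the last point as measured and as predicted by the line (percent of the first point, right), as mean ± SD of 3 wild-type cultures. In the slowest group the late half-life is 11.5 ± 0.40 min and the early one 32.2 ± 3.16 min. The late value of the fastest group rests on the 156 of 513 genes that could be tested, all of which still held label at the last point.

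Over the fitted range the half-life moved with read depth, and with a line over all 6 points it hardly did. Over genes, which do not count as independent replicates, the Spearman correlation of half-life with reads was 0.44 (n = 5123), or 0.035 with a line over all 6 points, and 0.40 in the 4985 genes outside the cytosolic ribosomal proteins. In the top 10% of genes by reads the median was 16.2 min, with 422 of 512 genes slower and 18 faster, and in the bottom 10% it was 8.05 min, with 8 slower. Precision also moved with depth: at the fifth point the median gene had 95.3 converted T positions, and 50 genes with 100 to 120 reads had a median of 13.3; its part in the counts of calls was not tested. With the span of the annotated gene the correlation was -0.24, the slowest 10% having a median span of 821.5 bases and the fastest 1542. With the label at the first point it was -0.28, the slowest 10% starting at 2.57 ± 0.112% converted and the fastest at 2.84 ± 0.193% (SD, n = 3). With the T content of the counted 3′ window it was 0.08, and with the window's length 0.01. The first label enters both the ranking line and this correlation.

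**Figure D5:**
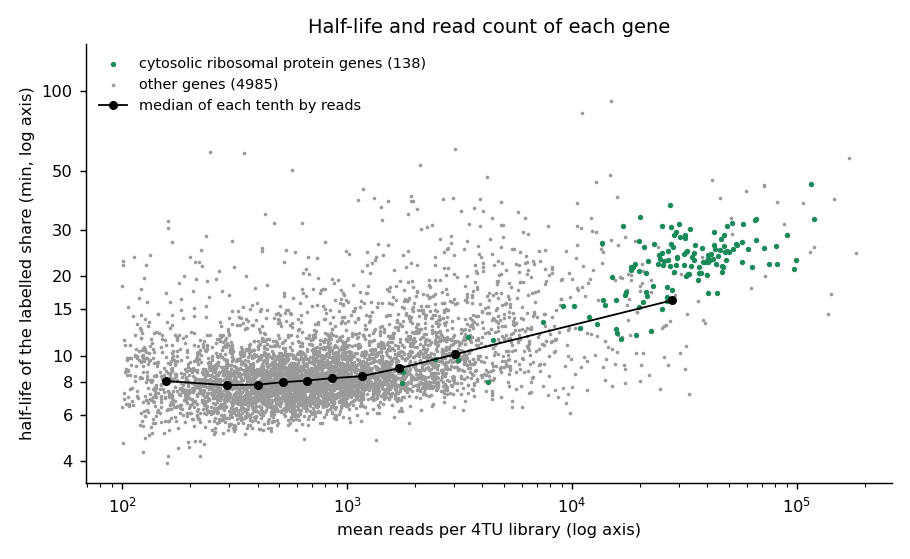
Half-life (minutes, log axis) against mean reads per 4TU library (log axis) of 5123 wild-type genes, with cytosolic ribosomal protein genes in green, other genes in grey and the median of each of 10 equal groups by reads joined. The median of the top group is 16.2 min and that of the bottom group 8.05 min; with a line over all 6 points the correlation is 0.035 in place of 0.44.

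The wild-type ranking was set beside that of the UPF3 deletion cultures, which were labelled and chased in the same way. Over 5094 genes the Spearman correlation between wild-type and deletion half-lives was 0.65. Of the slowest 10% of wild-type genes with values in both strains, 78.02% were in the slowest 10% of the deletion, and 79.3% of the slowest deletion genes were in the slowest 10% of wild type. For the fastest 10% the shares were 26.9% and 26.4%. All 11 of the 12 longest-lived genes that had a deletion value were in its slowest 10%, at percentiles 93.9 to 100.0, while of 11 shortest-lived genes 6 were in its fastest 10%. CLB6 lay at percentile 0.342 of the deletion ranking and CDC16 at 1.71, whereas DER1 lay at 45.5 and MSS2 at 37.4.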

How the data were processed

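SLAM-seq conversion tables of 3 wild-type and, for comparison, 3 UPF3 deletion cultures were analysed. Per the file headers, the deposited tables come from SlamDunk tcount and hold 1 line per gene and library. Per the submitters' processing notes the genome build was R64; the sources used here state neither the aligner settings nor the strand setting of the counting. The deposited counts are reads, T positions covered and T positions read as C per gene. The deposited fraction is the conversion rate the authors' tables give per gene, and the deposited score column holds CPM as computed by the authors. They also lack the pulse length and the unit of the chase times.

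The rate (conversions over covered T) minus that of the culture's DMSO library was logged (log2), and a line weighted by reads was fitted over times 0 to 19 with at least 4 points above background. Genes needed a mean of 100 reads per 4TU library. The log2 rate, centred on each culture's median gene, was tested with limma 3.58.1 in R 4.3.3 (trend and robust empirical Bayes, two-sided, Benjamini-Hochberg adjusted p under 0.05). A test of late against early rates was added after the data were seen. Python 3.11.15, numpy 2.4.6, pandas 2.3.3, scipy 1.17.1 and matplotlib 3.10.9 did the rest. The fit was tested on simulated data. CPM enter log2 values with a pseudocount of 0.5.

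Genes named individually are the 12 longest and 12 shortest half-lives among called genes with all cultures on 1 side, 11 often-studied genes, 1 of them also among the longest, the deepest untested genes, and in each list its extremes, its exceptions and members with a well-known role, the last chosen after their values were seen. The members and the lists were chosen with earlier results of these data known. Of 5560 gene IDs, 5558 matched RefSeq locus tags, which gave symbols and coordinates. Alternatives covered the fit, background, depth filter, centring, the measure of label and each culture left out. Replicates are separate cultures, and with 3 of them p-values rest on few degrees of freedom. One result on a pair of genes is not reported here.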

Additional observations from a re-analysis of the deposited data

How the results depend on the processing

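No paired analysis was possible because the test sets each gene against the median gene of the same wild-type culture and involves no second group of samples. Slower genes numbered 897, and 16 of 18 alternatives gave counts within 1.5 times of that; the others were a line over all 6 points (183) and a test against a 1.5-fold difference (372). Without 1 culture the count ran from 630 to 1222. Faster genes numbered 62 and were unstable: 814 by a nonlinear exponential fit, 14 over all 6 points, 16 without the first point, 291 by labelled amount, 186 at a minimum of 500 reads, 0 in the 1.5-fold test, 111 on the rate scale, 411 by a line over times 0 to 9, and 5 to 399 without 1 culture. The median half-life of 8.63 min became 11.4 over all 6 points, 10.3 from the share of reads with T>C, 8.21 by labelled amount, 9.001 at 500 reads and 8.17 over times 0 to 9. The correlation with reads of 0.44 became 0.50, 0.035, 0.52 and 0.50 by the exponential fit, all 6 points, 500 reads and times 0 to 9. Label left at the last point, 2.80%, became 3.67% from T>C reads, 2.20% by amount and 3.84% without background subtraction. Each setting picked its own shortest 12 called genes and ranked the deletion cultures with the same fit. Of the shortest 12 genes, 6 were in the deletion's fastest 10% in the main setting. The counts were 3, 1, 3, 1 and 12 by the exponential fit, all 6 points, equal weights, times 0 to 9 and amount. Late rates lower than early ones numbered 822, and 255 to 1039 without 1 culture.

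The 7 named genes and 26 list medians that changed direction are given as log2 values relative to the median gene, and the cause was not tested. By the exponential fit, sulfur and methionine genes stood at -0.24 and hexose transporters at -0.0658. Over all 6 points, VFA1 stood at 0.39, MUP3 at 0.28, CLN3 at 0.15 and GCN4 at -0.0528. The list medians there were 0.0138 for transcription regulators, -0.14 for histones, -0.0783 for respiration, -0.00874 for translation factors, -0.12 for the proteasome, -0.0293 for amino acid synthesis, -0.0385 for sulfur and methionine, -0.013 for the cell wall, 0.0767 for iron and copper, 0.0346 for kinases, 0.0152 for DNA replication and -0.0115 for ER and Golgi secretion. By labelled amount, MFA2 stood at 0.0742 and STE2 at 0.0483, with list medians of 0.16 for ribosome biogenesis, 0.0898 for RNA polymerases I and III, -0.36 for hexose transporters, 0.0595 for permeases, 0.24 for iron and copper, 0.0344 for mating, 0.0521 for the nuclear pore and -0.0146 for actin and cytoskeleton. Over times 0 to 9, DER1 stood at 0.50, with sulfur and methionine at -0.22, hexose transporters at -0.083, the nuclear pore at 0.0449 and kinases at 0.0454. Over named genes and alternatives, 480 values kept direction and side of the threshold, 96 lost the call and 11 gained one. The shortest 12 could not be placed in the deletion ranking without culture 2 or 3 or in the 1.5-fold test, since too few calls remained.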

Other observations

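Genes of zinc homeostasis, picked out after their values were seen, had reads that moved through the chase in several ways. In yeast the activator Zap1 induces its own gene and the transporter genes ZRT1 and ZRT3 when zinc is short, together with ADH4, VEL1 and ZPS1, and also regulates ZRT2. ZRT1, which encodes the high-affinity plasma membrane zinc transporter, had 623, 204 and 164 CPM at the fifth chase point in cultures 1, 2 and 3, against 4738, 3302 and 2911 CPM at the first. ZAP1 had 15.1, 17.4 and 20.9 CPM at the fifth point, against 78.04, 105 and 84.01 CPM at the first. ZRT3, the transporter gene for zinc export from the vacuole, had 41.6, 42.7 and 48.3 CPM, against 119.6, 207 and 166 CPM. These 3 genes lay lower at the fifth point in each culture, and how many of all genes did so was not counted. ZRT2, the low-affinity transporter gene, had 219, 182 and 163 CPM, against 199, 175 and 181 CPM, higher in cultures 1 and 2 and lower in culture 3. At the last point ZRT1 stood at 1483, 319 and 435 CPM and ZAP1 at 40.1, 34.5 and 38.8 CPM, above the fifth point in 3 of 3 cultures.

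The same genes spread widely in half-life. The labelled share of ZAP1 had a half-life of 7.40, 6.91 and 6.39 min (limma adjusted p = 0.116), that of ZRT3 8.63, 7.88 and 9.87 min (limma adjusted p = 0.896), and that of ZRT1 10.6, 14.0 and 14.9 min (limma adjusted p = 0.0107, slower). By labelled amount, ZRT1 had 3.65, 3.30 and 3.31 min, ZAP1 3.43, 3.19 and 3.42 min and ZRT3 4.46, 3.80 and 4.77 min, all below the 7.96, 8.26 and 8.42 min of the median gene. ADH4 had 14.8, 12.2 and 10.97 min by labelled amount and ZPS1 16.3, 13.7 and 13.6 min, above the median gene in each culture. ZRT1 was thus among the slower genes by share and below the median gene by amount. What moved the reads of these genes during the chase was not tested.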
